A study of Mus musculus with 12 samples.

Results

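Oligodendrocytes are the glial cells that wrap axons in myelin, the lipid-rich sheath that speeds conduction and supports the axon. The genes followed here are 31 genes of myelin and of mature and newly formed oligodendrocytes, chosen by symbol for their known roles. Each matched 1 of the 55401 gene IDs in the deposited count table, and all 31 passed the filter on low counts. A sheath is built in steps: transcription factors such as SOX10 and MYRF switch on the program, newly formed cells express transient genes, and mature cells then make large amounts of membrane proteins and galactolipids. In the prefrontal cortex myelin lies in the deep layers and the adjoining white matter, and it goes on forming in adult life. RNA of these genes in a piece of cortex therefore follows both how many oligodendrocytes the piece holds and how much RNA each makes, and in bulk tissue fewer cells and less RNA per cell cannot be told apart.

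The tissue was medial prefrontal cortex of male mice, taken after 2 weeks of extinction of conditioned place preference, a learned preference for a chamber. Each of the 3 groups had 4 libraries and every animal had received an adeno-associated virus (AAV). They were a scramble virus with saline, labelled AAV-Scramble-Saline, the scramble virus with morphine, AAV-Scramble-Morphine, and a virus against the serotonin receptor 5-HT6R with morphine, AAV-5-HT6Rkd-Morphine. No group combined the knockdown with saline, so virus and drug can be separated only between the morphine groups and between the scramble groups. The sources used here give no age, strain or viral promoter, nor whether each library came from its own animal, so p-values reflect only the spread among libraries, which may be technical. Below, values by library are always listed in the order of replicates 2, 3, 4 and 5 with saline, 1, 3, 4 and 5 with scramble and morphine, and 1, 2, 3 and 5 with the knockdown. Levels are CPM, the usual count of a gene relative to all counts of its library, after scaling for composition, and differences are log2 fold changes of an edgeR quasi-likelihood fit of all 12 libraries.

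Total counts ran from 41483220 to 65739423, and the lowest count of any member in any library was 58. Knockdown replicates 1 and 2 stood apart: counts at a ribosomal RNA locus, CT010467.1, took 9.38 and 6.79% of them, against 4.57 and 5.12% of knockdown replicates 3 and 5, 3.58 to 5.63% with saline and 2.38 to 3.04% with scramble and morphine. These libraries also had the lowest mean member level, so medians of the members and related lists, and values of members that split on them, are also given without them. Omitting the lowest libraries raises the mean member level of the knockdown group by construction, so the direction of that change is not a result. Htr6, the gene of the targeted receptor, was at 5.45, 6.92, 4.35 and 7.98 CPM with saline, 5.30, 5.16, 4.82 and 5.58 with scramble and morphine, and 4.49, 5.30, 3.82 and 5.46 in the libraries labelled as knockdown. The morphine groups overlapped and the log2 fold change of -0.13 (SE 0.18, edgeR adjusted p = 0.823) was not called, so the name knockdown below is that of the label. As a check of the tissue, all 12 astrocyte, 10 excitatory neuron and 12 precursor markers passed the filter, while of 8 Schwann cell markers 3, Pmp2 and Foxd3 among them, stayed below it. The other 5 passed, with Drp2 at a mean of 103 CPM making up most of their sum of 100.2 to 124.5 CPM per library and Egr2 at 4.81 CPM, and both of these are also expressed in brain.

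Opalin, Mag, Mog, Cnp and Mobp are shown first as sequence, because MYRF and SOX10 are known to drive such sheath genes. Their fold changes lay below 0 in the knockdown group, but so did those of all 31 members. Each line holds the 250 bases before the transcript start, from RefSeq on GRCm38.p6, the assembly of mm10, on the gene's strand. Capitals mark ACAAAG, the core that SOX factors bind, and CTGGCAC or CTGGTAC, the letters that MYRF binds, each on either strand; no match in these stretches overlapped another.
Opalin, chr19:41077114-41077363, minus strand: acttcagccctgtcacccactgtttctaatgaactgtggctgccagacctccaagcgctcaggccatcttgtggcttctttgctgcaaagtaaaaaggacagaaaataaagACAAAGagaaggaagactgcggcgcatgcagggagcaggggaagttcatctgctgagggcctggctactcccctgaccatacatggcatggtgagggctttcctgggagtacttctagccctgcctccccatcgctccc
Mag, chr7:30914864-30915113, minus strand: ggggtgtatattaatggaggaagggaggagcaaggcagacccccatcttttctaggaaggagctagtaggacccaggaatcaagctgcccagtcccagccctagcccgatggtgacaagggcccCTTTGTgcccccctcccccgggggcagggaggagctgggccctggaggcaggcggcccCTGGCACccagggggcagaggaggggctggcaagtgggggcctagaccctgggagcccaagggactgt
Mog, chr17:37023399-37023648, minus strand: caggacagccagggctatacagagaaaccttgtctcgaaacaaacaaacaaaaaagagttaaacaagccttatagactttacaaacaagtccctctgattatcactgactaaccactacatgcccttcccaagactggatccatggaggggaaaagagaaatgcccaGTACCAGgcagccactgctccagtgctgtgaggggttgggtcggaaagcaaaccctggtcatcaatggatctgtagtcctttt
Cnp, chr11:100574689-100574938, plus strand: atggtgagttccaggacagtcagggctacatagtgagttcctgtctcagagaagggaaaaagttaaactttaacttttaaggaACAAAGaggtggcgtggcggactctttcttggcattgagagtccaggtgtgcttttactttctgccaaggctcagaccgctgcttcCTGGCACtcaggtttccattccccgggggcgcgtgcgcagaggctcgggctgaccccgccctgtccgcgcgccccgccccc
Mobp, chr9:120149492-120149741, plus strand: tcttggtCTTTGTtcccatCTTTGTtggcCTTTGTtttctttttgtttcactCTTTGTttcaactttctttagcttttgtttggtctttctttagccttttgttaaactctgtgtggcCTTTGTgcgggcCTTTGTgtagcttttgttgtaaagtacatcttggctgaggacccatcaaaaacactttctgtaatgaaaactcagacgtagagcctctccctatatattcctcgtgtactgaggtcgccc
Mag, which has other annotated starts, and Cnp held 1 match of each kind in this stretch, and Mog held 1 MYRF match whose first base lay 83 bases before the start. Mobp held 6 SOX matches, from 243 to 120 bases before the start, and no MYRF match. Opalin held 1 SOX match at 139 bases before the start, with another 24 and a MYRF match 37 bases after it, outside the stretch shown. Not every sheath gene held a match: Mal, not shown, had 0 of either kind. Tspan2, also not shown, had 1 SOX match at 1 of its annotated starts and no MYRF match.

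Over windows of 300 bases, which add the 50 bases after the start, 21 of the 31 members had an entry in the RefSeq table. A MYRF match was present for 6 of them, 28.6%, against 8.1% of all 27025 genes with an entry: Cnp, Hapln2, Mag, Mog, Opalin and Tmem125. A SOX match was present for 6 of 21, 28.6%, against 21% of all genes, and a homeodomain core, TTAATT on either strand, for 2, Cldn11 and Enpp6, 9.52% against 12.9%. Member windows had a median GC content of 59.3%, all windows 52.7%. These are matches of letters in a short window, not bound sites.

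In the knockdown group all 31 members had a log2 fold change below 0 against scramble with morphine. Their median was -0.30, a fold of 0.812, where the median of all 21958 genes tested was 0.004 and 49.3% of genes lay below 0. The values ran from -0.89 for Ppp1r14a to -0.007 for Gsn. No member passed the test over all genes: edgeR called 0 of 31 at an adjusted p under 0.05, as it called 0% of all genes, and the lowest adjusted p of a member was 0.264. At an unadjusted p under 0.05 there were 13 of 31 members, 41.9%, all lower, where 6.17% of all genes were lower at that p. That count rested on a few libraries: members at an unadjusted p under 0.05 numbered 3 without scramble morphine replicate 3, 4 without scramble morphine replicate 1 or knockdown replicate 2, 6 without knockdown replicate 1, and 19 without scramble morphine replicate 4. It was 1 without knockdown replicates 1 and 2 and 0 with the ribosomal RNA share as a covariate. That share was 2.38 to 3.04% with scramble and morphine and 4.57 to 9.38% with the knockdown. As these ranges do not overlap, the covariate fit cannot separate share from group in this comparison, here or below. Nor can it between the scramble groups, as the share with saline was 3.58 to 5.63%. The saline and knockdown ranges overlap only in part. The groups did not overlap for 2 members, Ppp1r14a and Fa2h, which is 6.45% of members beside 3.26% of all genes that were lower without overlap. Members varied together over the libraries and are not separate observations. The median SD of a member's log2 CPM over the 12 libraries was 0.295, and 0.171 after each library's mean over the members was subtracted. Why they varied together was not tested.

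**Figure D1:**
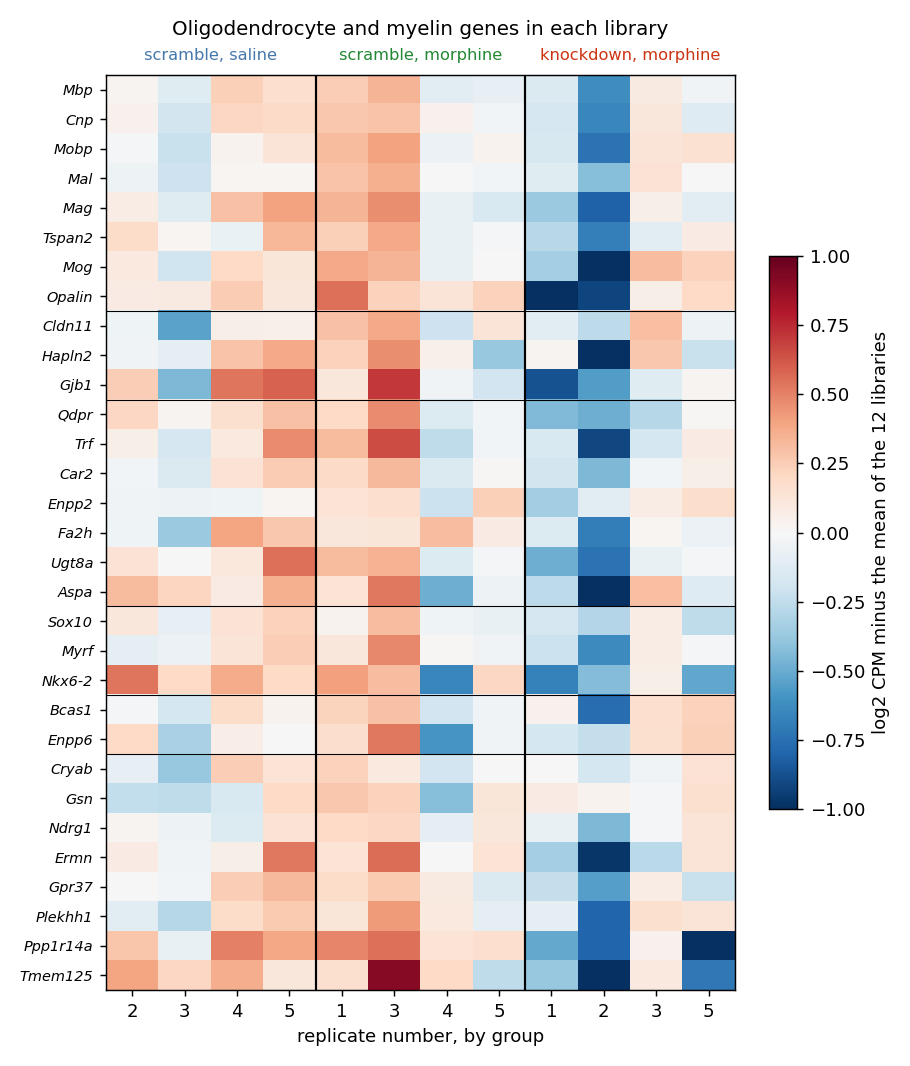
Each row is 1 of the 31 members, each column 1 library (replicate numbers on the axis, groups separated by lines), and colour gives log2 CPM minus the mean of the 12 libraries, cut at 1 in either direction. Knockdown replicate 2 was the lowest library for 22 members and scramble morphine replicate 3 the highest for 22, while knockdown replicates 3 and 5 lie near the middle.

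The libraries of 1 group were far from equal. Knockdown replicate 2 was the lowest of all 12 libraries for 22 of 31 members and replicate 1 for 4, and scramble morphine replicate 3 was the highest for 22. Measured as the mean log2 CPM of the 31 members minus its mean over the 12 libraries, the knockdown libraries stood at -0.268, -0.622, 0.053 and -0.048. Those with scramble and morphine stood at 0.24, 0.391, -0.1 and -0.006, and those with saline at 0.074, -0.125, 0.169 and 0.241. Knockdown replicates 3 and 5 thus lay inside the range of both scramble groups and replicates 1 and 2 below it. In knockdown replicates 1 and 2, 21 and 26 members were below every scramble morphine library; in replicates 3 and 5 it was 6 each, and no knockdown library exceeded the highest scramble morphine library for any member. The median coefficient of variation over members was 21.3% with the knockdown, 15.8% with scramble and morphine and 12.1% with saline.

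**Figure D2:**
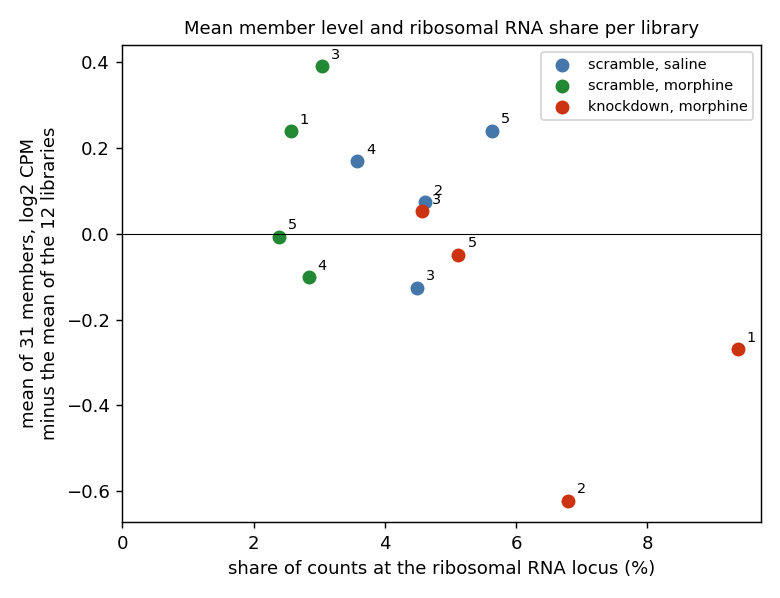
Each point is a library, with the share of its counts that fell on the ribosomal RNA locus (x axis, %) against the mean of the 31 members (y axis, log2 CPM minus the mean of the 12 libraries); numbers are replicates. Knockdown replicates 1 and 2 have both the highest shares, 9.38 and 6.79%, and the lowest mean levels, -0.268 and -0.622.

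Without knockdown replicates 1 and 2, an alternative chosen after seeing the data, 25 of 31 members lay below 0 with a median of -0.13. Without replicate 2 alone 28 did, with a median of -0.18. Since the lowest libraries were the ones left out, a shift of this direction was built into the choice. When the ribosomal RNA share, which did not overlap between the morphine groups, entered the fit as a covariate, 24 lay below 0, with a median of -0.13. Ppp1r14a and Tmem125 stayed furthest below 0 without replicates 1 and 2, at -0.80 (SE 0.29) and -0.57 (SE 0.31), followed by Nkx6-2 at -0.34 (SE 0.27) and Ermn at -0.28 (SE 0.19). By role, the medians without them were -0.13 for the sheath membrane (7 of 8 below 0), -0.09 for junctions and nodes (3 of 3), -0.18 for lipid and metabolic genes (5 of 7), -0.15 for transcription factors (3 of 3), 0.115 for newly formed cells (0 of 2) and -0.115 for cytoskeleton, signalling and stress (7 of 8).

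All 8 members that encode proteins of the sheath membrane had a log2 fold change below 0 with the knockdown against scramble and morphine, with a median of -0.32, and none passed (lowest edgeR adjusted p = 0.349). Mbp, myelin basic protein, which zips the inner faces of the membrane together, was the most abundant member and gave 36.5% of their summed CPM. It stood at 957, 865, 1113 and 1058 CPM with saline, 1119, 1191, 872 and 891 with scramble and morphine, and 852, 613, 999.8 and 919 with the knockdown. Knockdown replicates 1 and 2 lay below every scramble library and replicates 3 and 5 among them, so the groups overlapped. This came to a log2 fold change of -0.27 (SE 0.14, edgeR adjusted p = 0.473), and to -0.09 (SE 0.13) without replicates 1 and 2.

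Mog, myelin oligodendrocyte glycoprotein on the outermost lamella, was at 18.8, 15.3, 20.2 and 19.1 CPM with saline, 22.9, 22.3, 16.7 and 17.7 with scramble and morphine, and 13.9, 8.40, 21.8 and 20.7 with the knockdown. Its knockdown libraries split widely, with replicates 1 and 2 below every other library and replicates 3 and 5 above the highest saline library, and its log2 fold change of -0.29 (SE 0.24) was not called. The Mog value turned to 0.09 (SE 0.15) without replicates 1 and 2 and to 0.17 with the ribosomal RNA covariate. Mag, an adhesion protein that faces the axon, was at 73.7, 64.6, 86.1 and 92.8 CPM with saline, 88.9, 96.6, 66.7 and 63.0 with scramble and morphine, and 54.1, 40.1, 73.0 and 65.1 with the knockdown. Its replicates 1 and 2 with the knockdown lay below all scramble libraries and replicates 3 and 5 within them, at a log2 fold change of -0.44 (SE 0.19, edgeR adjusted p = 0.399), or -0.19 (SE 0.19) without replicates 1 and 2. Mobp, a small basic protein of compact myelin, was at 255, 219, 263 and 280.4 CPM with saline, 319, 339, 247 and 264 with scramble and morphine, and 229, 154, 280.0 and 286 with the knockdown. Knockdown replicate 2 was the lowest library, replicate 1 was close to the lowest scramble values, and replicate 5 lay above every saline library. The log2 fold change was -0.30 (SE 0.17), or -0.05 (SE 0.13) without replicates 1 and 2.

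Cnp, a phosphodiesterase that keeps cytoplasmic channels open in the sheath, was at 144, 123, 161 and 159 CPM with saline, 169, 170.4, 144 and 137 with scramble and morphine, and 124, 88.9, 151 and 128 with the knockdown. Knockdown replicates 1, 2 and 5 lay below every library with scramble and morphine and replicate 3 did not, at -0.34 (SE 0.14, edgeR adjusted p = 0.369). Opalin, a membrane glycoprotein of oligodendrocytes, was at 6.72, 6.76, 7.58 and 6.87 CPM with saline, 9.33, 7.46, 6.94 and 7.46 with scramble and morphine, and 3.15, 3.36, 6.64 and 7.30 with the knockdown. Replicates 1, 2 and 3 of the knockdown lay below every scramble library, replicate 3 only just, and replicate 5 lay among them. Its log2 fold change of -0.60 (SE 0.23, edgeR adjusted p = 0.349) was the lowest of the sheath group. It was -0.17 (SE 0.16) without replicates 1 and 2 and turned to 0.20 with the ribosomal RNA covariate. Mal, a proteolipid that sorts membrane to the sheath, was at -0.25 (SE 0.11) and the tetraspanin Tspan2 at -0.36 (SE 0.15), with 2 and 3 knockdown libraries below every library with scramble and morphine.

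**Figure D3:**
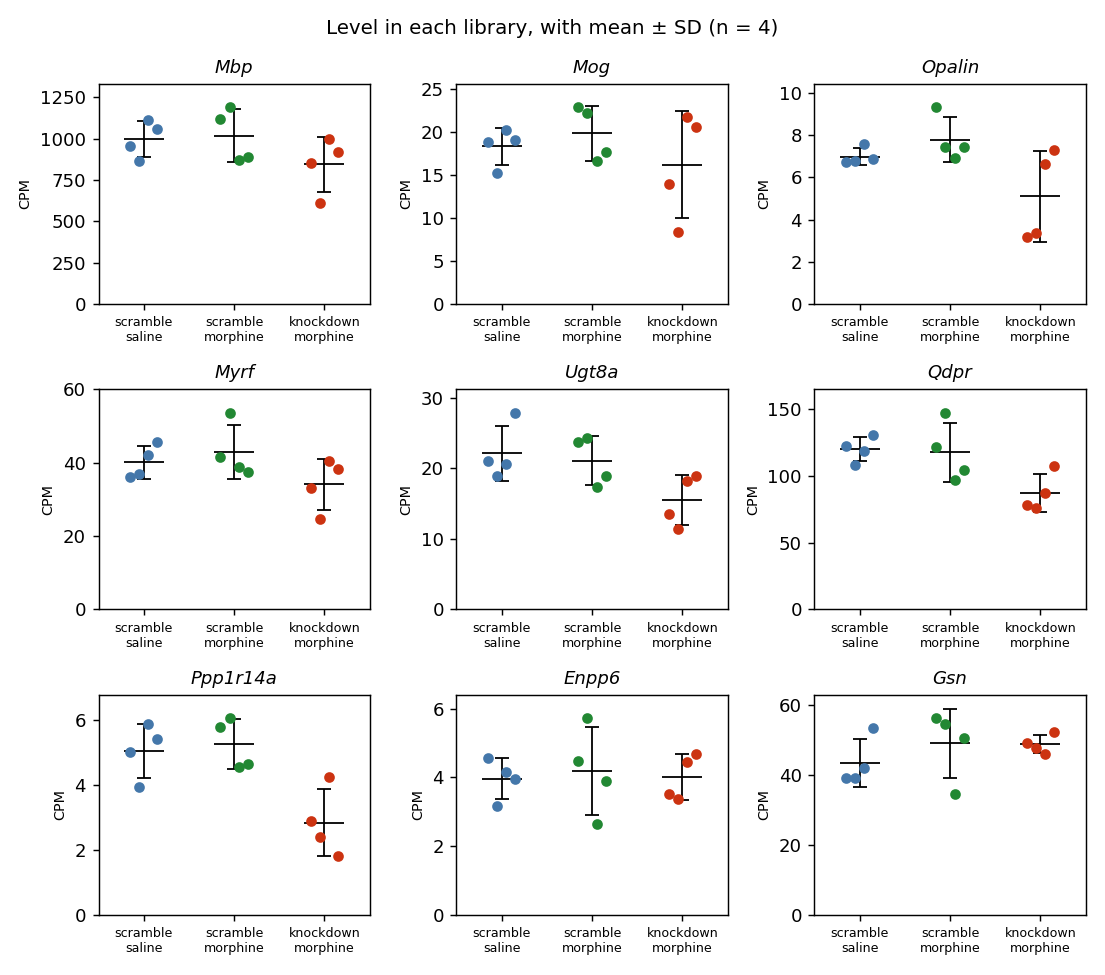
Each panel plots the CPM of 1 member in the 12 libraries (points, by group) with the mean and SD of each group (bars, n = 4), on an axis from 0. Mog and Opalin split into low and high knockdown libraries, Ppp1r14a lies below every scramble morphine library in all 4 of them, and Enpp6 and Gsn overlap throughout.

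Among the 3 genes of junctions, nodes and channels the median log2 fold change was -0.28, with 0 called (lowest edgeR adjusted p = 0.434). Cldn11, the claudin that seals the lamellae with tight junctions, was at 52.0, 36.8, 55.7 and 55.4 CPM with saline, 65.3, 69.4, 46.3 and 58.4 with scramble and morphine, and 49.7, 44.5, 65.9 and 51.5 with the knockdown. The lowest library of all was saline replicate 3 and the knockdown values ran across both scramble groups, at -0.18 (SE 0.16) and 0.01 with the ribosomal RNA covariate. Gjb1, connexin 32, forms gap junctions of the sheath, and was at 6.58, 4.07, 8.05 and 8.38 CPM with saline, 6.01, 9.10, 5.44 and 4.88 with scramble and morphine, and 3.05, 3.78, 5.11 and 5.67 with the knockdown. The lowest libraries were knockdown replicates 1 and 2, at -0.53 (SE 0.26), or -0.24 (SE 0.29) without them. Hapln2, a link protein of the matrix at the node of Ranvier, was at 13.1, 12.6, 16.3 and 17.4 CPM with saline, 15.7, 18.5, 13.9 and 10.3 with scramble and morphine, and 13.7, 6.71, 16.1 and 11.5 with the knockdown. Here knockdown replicate 2 alone lay below all others, and the log2 fold change was -0.28 (SE 0.23).

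The 7 genes of lipid and metabolic enzymes and carriers all lay below 0, with a median of -0.35 and 0 called. Qdpr, dihydropteridine reductase, which recycles the cofactor tetrahydrobiopterin and is abundant in oligodendrocytes, was at 123, 108, 119 and 130.4 CPM with saline, 122, 147, 96.8 and 104 with scramble and morphine, and 78.2, 75.7, 87.2 and 107 with the knockdown. Replicates 1, 2 and 3 of the knockdown lay below all 8 scramble libraries and replicate 5 above some with morphine. Its log2 fold change came to -0.43 (SE 0.13, edgeR adjusted p = 0.289), and -0.55 without knockdown replicate 5, where it passed (edgeR adjusted p = 0.0433). It was the 1 of 31 members called in that fit, which called 375 genes, 1.66% of all tested. Ugt8a, the enzyme that makes galactosylceramide, the main myelin lipid, was at 21.0, 19.0, 20.5 and 27.9 CPM with saline, 23.8, 24.3, 17.3 and 18.9 with scramble and morphine, and 13.6, 11.4, 18.1 and 18.8 with the knockdown. The knockdown libraries all lay below the 4 saline libraries but overlapped those with scramble and morphine, at -0.44 (SE 0.17, edgeR adjusted p = 0.349), or -0.19 (SE 0.17) without replicates 1 and 2.

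Fa2h, which adds the 2-hydroxyl group to those lipids, was at 13.2, 10.5, 17.9 and 16.5 CPM with saline, 14.8, 14.8, 16.9 and 14.5 with scramble and morphine, and 12.4, 8.45, 13.8 and 13.1 with the knockdown. All 4 knockdown libraries lay below all 4 with scramble and morphine, though the difference of -0.35 (SE 0.17, edgeR adjusted p = 0.421) did not pass. Aspa, aspartoacylase, which frees acetate from N-acetylaspartate for lipid synthesis, was at 8.73, 8.15, 7.45 and 8.97 CPM with saline, 7.71, 10.1, 5.01 and 6.77 with scramble and morphine, and 5.84, 3.51, 8.67 and 6.44 with the knockdown. Knockdown replicate 2 was the lowest library, and replicate 3 lay above 3 of the 4 with scramble and morphine, at -0.27 (SE 0.24), or 0.02 (SE 0.23) without replicates 1 and 2. Trf, transferrin, the iron carrier that oligodendrocytes secrete, was at 158, 136, 163 and 211 CPM with saline, 189.6, 239, 128 and 149.5 with scramble and morphine, and 137, 80.9, 135 and 161 with the knockdown. Scramble morphine replicate 3 and saline replicate 5 were high and knockdown replicate 2 low, with a difference of -0.46 (SE 0.24).

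Car2, a carbonic anhydrase that interconverts carbon dioxide and bicarbonate, was at 101, 93.4, 114 and 123 CPM with saline, 118, 129, 93.3 and 104 with scramble and morphine, and 90.9, 75.3, 101 and 108 with the knockdown. Knockdown replicates 1 and 2 lay below every scramble library, at -0.24 (SE 0.12), or -0.09 (SE 0.13) without them. Enpp2, autotaxin, which makes lysophosphatidic acid, was at 138, 136, 137 and 143 CPM with saline, 155, 158, 122 and 167 with scramble and morphine, and 111, 131, 149 and 159 with the knockdown. Its groups overlapped, with a log2 fold change of -0.13 (SE 0.11) that turned to 0.03 without replicates 1 and 2 and to 0.19 with the ribosomal RNA covariate, and its lowest library was knockdown replicate 1, not replicate 2. Enpp2 is also made by choroid plexus, whose 6 markers summed to 3.46 to 8.01 CPM over all libraries.

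The 3 transcription factors had log2 fold changes of -0.22, -0.33 and -0.49 for Sox10, Myrf and Nkx6-2, with 0 called. Myrf, the membrane-tethered factor that starts and keeps myelin gene expression, was at 36.0, 36.8, 42.1 and 45.5 CPM with saline, 41.7, 53.6, 38.7 and 37.5 with scramble and morphine, and 33.2, 24.7, 40.4 and 38.2 with the knockdown. Its lowest libraries were knockdown replicates 1 and 2 (SE 0.15, edgeR adjusted p = 0.398), without which Myrf was at -0.13 (SE 0.14). Sox10, which marks the whole lineage from precursor to mature cell, was at 29.5, 25.7, 30.1 and 31.8 CPM with saline, 27.9, 33.7, 26.4 and 25.8 with scramble and morphine, and 24.3, 22.2, 28.6 and 22.9 with the knockdown. Replicates 1, 2 and 5 of the knockdown lay below all scramble libraries by a small margin (SE 0.11, edgeR adjusted p = 0.423). Nkx6-2, a homeodomain factor of mature cells, was at 7.25, 5.75, 6.46 and 5.74 CPM with saline, 6.66, 6.19, 3.18 and 5.76 with scramble and morphine, and 3.13, 3.70, 5.20 and 3.49 with the knockdown. Scramble morphine replicate 4 was as low as the knockdown libraries, and every knockdown library lay below all saline libraries (SE 0.22).

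The 2 genes of newly formed oligodendrocytes had small differences, with a median of -0.09 and 0 called. Bcas1, which marks cells that have just begun to myelinate, was at 61.4, 54.6, 70.3 and 63.2 CPM with saline, 72.1, 75.8, 54.0 and 60.4 with scramble and morphine, and 63.7, 36.5, 69.5 and 72.4 with the knockdown. Apart from knockdown replicate 2 the knockdown values reached those of the scramble groups, at -0.12 (SE 0.19, edgeR adjusted p = 0.852) and 0.06 without that replicate. Enpp6, a choline phosphodiesterase expressed briefly at the start of myelination, was at 4.57, 3.17, 4.17 and 3.97 CPM with saline, 4.49, 5.73, 2.65 and 3.89 with scramble and morphine, and 3.53, 3.38, 4.45 and 4.70 with the knockdown. No knockdown library lay below the lowest or above the highest library with scramble and morphine, at a log2 fold change of -0.06 (SE 0.22, edgeR adjusted p = 0.943). The 95% interval of the Enpp6 fold ran from 0.697 to 1.32, and its value turned to 0.12 (SE 0.26) without knockdown replicates 1 and 2.

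The remaining 8 members, of cytoskeleton, signalling and stress, held both ends of the range. Ppp1r14a, or CPI-17, an inhibitor of myosin phosphatase (chromosome 7, 29289308 to 29293801, plus strand, mm10), was at 5.00, 3.93, 5.87 and 5.40 CPM with saline, 5.79, 6.06, 4.55 and 4.66 with scramble and morphine, and 2.90, 2.39, 4.25 and 1.82 with the knockdown. All 4 knockdown libraries lay below all 4 with scramble and morphine, and the lowest was replicate 5, which was the lowest library for no other member. The log2 fold change came to -0.89 (SE 0.23, a fold of 0.540 with a 95% interval of 0.385 to 0.757). It did not pass in edgeR (adjusted p = 0.264) and passed in DESeq2 (-0.89, adjusted p = 0.0342). There it was the 1 of 31 members called, where 164 genes, 0.747% of all tested, were called. Tmem125, a membrane protein, was at 4.04, 3.54, 3.95 and 3.32 CPM with saline, 3.43, 5.78, 3.52 and 2.58 with scramble and morphine, and 2.36, 1.44, 3.29 and 1.87 with the knockdown. Knockdown replicates 1, 2 and 5 lay below all scramble libraries, and replicate 3 lay below those with saline and above 1 with morphine, at -0.77 (SE 0.27, edgeR adjusted p = 0.324).

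Ermn, ermin, which binds actin in the outer tongue of the sheath, was at 23.6, 21.7, 23.2 and 32.1 CPM with saline, 24.5, 32.9, 22.3 and 24.4 with scramble and morphine, and 17.6, 11.3, 18.5 and 24.3 with the knockdown. Replicates 1, 2 and 3 of the knockdown lay below all scramble libraries, at -0.53 (SE 0.20, edgeR adjusted p = 0.348). Gpr37, a receptor that restrains oligodendrocyte differentiation, was at 32.4, 31.8, 38.3 and 40.4 CPM with saline, 36.7, 38.9, 34.5 and 29.3 with scramble and morphine, and 27.5, 22.1, 34.2 and 27.8 with the knockdown. Replicates 1, 2 and 5 of the knockdown lay below all scramble libraries, at -0.32 (SE 0.13, edgeR adjusted p = 0.351). Plekhh1 and Ndrg1, which follow in this group, had -0.25 (SE 0.19) and -0.20 (SE 0.11).

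Cryab, a small heat shock protein, was at 34.1, 27.8, 42.8 and 39.5 CPM with saline, 42.2, 38.5, 31.6 and 36.2 with scramble and morphine, and 36.1, 31.95, 35.1 and 39.8 with the knockdown. No knockdown library lay below the lowest library with scramble and morphine, at -0.05 (SE 0.12), which turned to 0.01 without replicates 1 and 2 and with the covariate. Gsn, gelsolin, which severs actin, was at 39.3, 39.1, 42.0 and 53.4 CPM with saline, 56.3, 54.7, 34.7 and 50.7 with scramble and morphine, and 49.2, 47.9, 46.2 and 52.2 with the knockdown. The knockdown libraries were close to each other and within the range of scramble with morphine, at -0.007 (SE 0.14, edgeR adjusted p = 0.989). Gsn and Cryab are also expressed in astrocytes and vessel cells. Markers of pericytes and smooth muscle summed to 249.8 to 375 CPM with the knockdown against 242 to 286 with scramble and morphine, and meningeal fibroblast markers to 213 to 338 against 151 to 264; their part in the levels of these members was not tested.

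**Figure D4:**
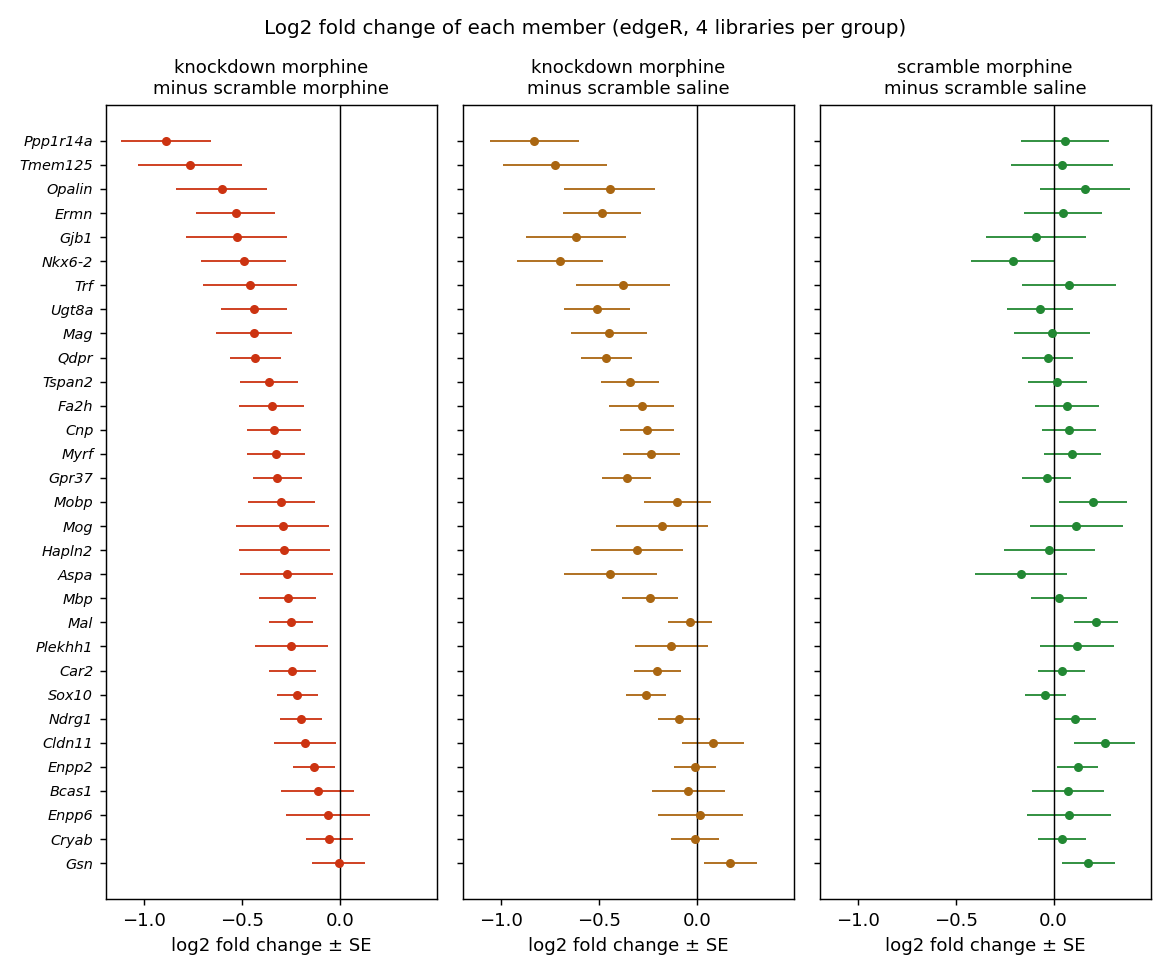
Points are the log2 fold change of each member and bars its SE (edgeR, 4 libraries per group), in the same order in all 3 panels. All 31 lie below 0 between knockdown and scramble with morphine, 28 lie below 0 against scramble with saline, and 22 lie above 0 between morphine and saline.

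Genes of the same cells and pathways, from lists other than the 31, were read in the same comparison. Of 25 other mature oligodendrocyte genes 20 lay below 0, with a median of -0.23 and 0 called in either direction; without knockdown replicates 1 and 2 it was 17, with a median of -0.06. Klk6, a protease of mature oligodendrocytes, had the lowest value, at 0.889 against 2.75 CPM (-1.62), and was named after its values were seen. Its level was low and spread widely, from 0.323 to 4.41 CPM over all libraries, and it was not among the 2 smallest p of its list. Pllp, plasmolipin, stood at 18.2 against 24.6 CPM (-0.43, SE 0.13, edgeR adjusted p = 0.291). Cholesterol synthesis, on which membrane growth in the sheath depends, had 22 of 24 genes below 0, with a median of -0.32 and 0 called. Of the 24, 14 were at an unadjusted p under 0.05 in either direction, where 2643 of all 21958 genes tested were. Without knockdown replicates 1 and 2, 23 lay below 0, with a median of -0.28, and 3 were at that p. Sqle, squalene epoxidase, stood at 52.4 against 68.1 CPM (-0.38, SE 0.11, edgeR adjusted p = 0.272), and Stard4, a cholesterol carrier, at 25.6 against 34.3 (-0.42, SE 0.13, adjusted p = 0.285). These enzymes are also expressed in neurons and astrocytes, and their summed level did not follow the members library by library. It was 1290, 1471, 1238 and 1594 CPM with the knockdown, so that replicate 3, the highest of the knockdown libraries in mean member level, was lowest. With saline it was 1762, 1716, 1247 and 1655 and with scramble and morphine 1682, 1742, 1802 and 1562.

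Sphingolipid and galactolipid genes other than Ugt8a and Fa2h had 11 of 15 below 0, a median of -0.08 and 0 called; the smallest p belonged to Sgms1, sphingomyelin synthase, which lay above 0 at 0.27 (SE 0.07, edgeR adjusted p = 0.265), and to Galc, galactosylceramidase, at 0.15 (SE 0.08). Regulators of differentiation were spread around 0, with 11 of 24 below, a median of 0.01 and 0 called. Sox6, which holds precursors immature, was at 0.33 (SE 0.10, edgeR adjusted p = 0.289) and Sox8 at -0.31 (SE 0.11, adjusted p = 0.324). Precursor markers had 5 of 12 below 0 and a median of 0.07, with Pdgfra at 0.20 (SE 0.06, edgeR adjusted p = 0.289) and Lhfpl3 at -0.32 (SE 0.11, adjusted p = 0.324). They summed to 586, 527, 545 and 626 CPM in the knockdown libraries, 560 to 567 with scramble and morphine and 556 to 597 with saline. In knockdown replicate 2 the precursor sum was thus also the lowest of the 12. Genes of axon-glia contact and the node had 9 of 18 below 0, a median of 0.02 and 0 called, with Erbb4 at 0.19 (SE 0.08) and Ank3 at 0.16 (SE 0.08).

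**Figure D5:**
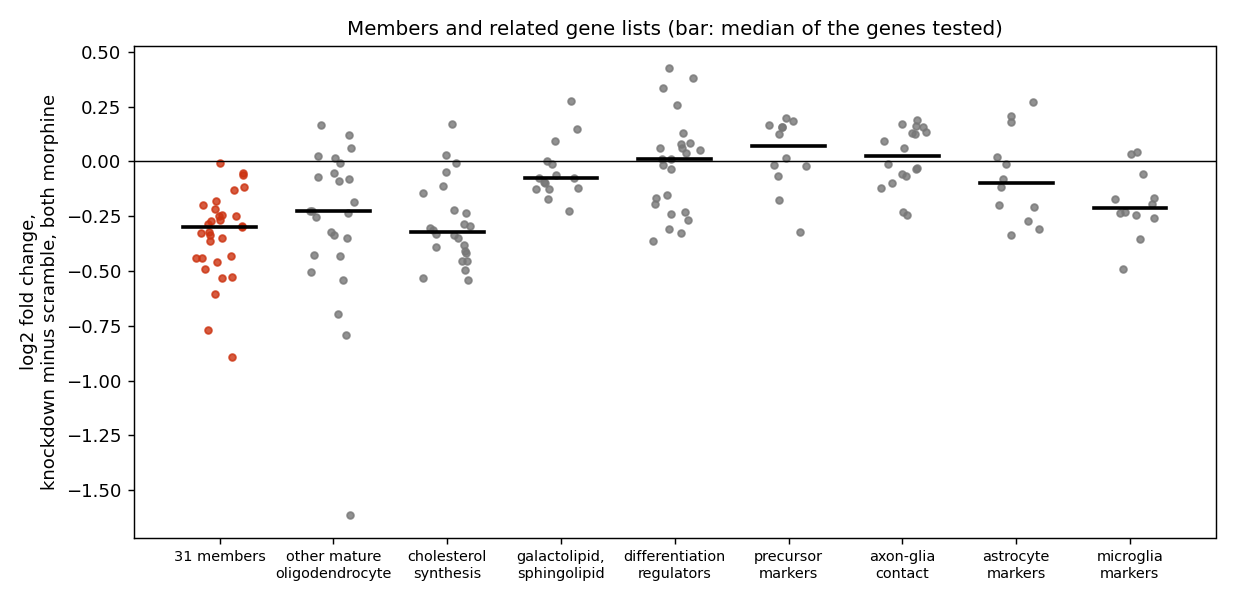
Each point is a gene's difference (log2 fold change, knockdown minus scramble, both with morphine), by list, and each bar the median of the genes tested. Medians lie at -0.30 for the members, -0.23 for other mature oligodendrocyte genes and -0.32 for cholesterol synthesis, and between -0.21 and 0.07 for the other lists drawn.

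Markers of other cells were read in the same libraries, with 0 called in each list. Between knockdown and scramble with morphine, 10 of 12 microglial markers lay below 0 with a median of -0.21, all 10 endothelial markers above 0 with 0.24, 8 of 12 astrocyte markers below 0 with -0.10 and 6 of 10 excitatory neuron markers below 0 with -0.09. Microglial markers summed to 536 CPM in knockdown replicate 2, the lowest of the 12 libraries, and to 700.3 to 832 in the other knockdown libraries, against 659.9 to 1002 with scramble and morphine. Excitatory neuron markers summed to 7050 CPM in the same replicate, the highest of the 12, and to 5324 in replicate 1, the lowest. The 10 striatal projection neuron markers summed to 132 to 153 CPM with the knockdown, below the 161 to 189 of every scramble library, at a median log2 fold change of 0.01 with 5 of 10 above 0. Ppp1r1b alone, at 50.0 against 79.3 CPM, carried most of that difference. Interneuron markers had a median of -0.06, ependymal markers -0.04, choroid plexus markers 0.51, blood markers 0.13, pericyte markers 0.20, fibroblast markers 0.39 and Schwann cell markers -0.01. Without knockdown replicates 1 and 2 the median was -0.11 for microglial, 0.18 for fibroblast and 0.01 for choroid plexus markers. How far the make-up of the tissue pieces bore on the myelin genes was not tested.

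Morphine against saline, both with the scramble virus, showed 0 of 31 members called by edgeR, as 0% of all genes were, and 0 members at an unadjusted p under 0.05, where 3.48% of all genes were. The groups overlapped for all 31, where 1.77% of all genes were lower and 1.55% higher without overlap. Members above 0 numbered 22 and below 0 it was 9, where 50.5% of all genes lay below 0; the median was 0.06, with folds from 0.866 to 1.2. The highest value was that of Cldn11 at 0.26 (SE 0.16), with group means of 59.9 ± 10.1 against 50.0 ± 8.94 CPM (SD, n = 4), and the lowest that of Nkx6-2 at -0.21 (SE 0.22), at 5.45 ± 1.56 against 6.30 ± 0.717. Mal, with the smallest p, was at 79.2, 71.1, 83.4 and 83.4 CPM with saline, 100.2, 105, 82.4 and 80.6 with scramble and morphine, and 75.4, 61.3, 91.0 and 81.8 with the knockdown, a difference of 0.22 (SE 0.11, edgeR adjusted p = 0.999). Scramble morphine replicates 1 and 3 lay above every saline library, and replicates 4 and 5 lay within their range. The sign of the median turned in several settings, among them without scramble morphine replicate 3 (-0.04) or saline replicate 3 (-0.01) and with the ribosomal RNA covariate (-0.03). The 25 other mature genes had a median of 0.03, with 17 above 0 and 0 called; the smallest p belonged to Apod, at 0.31 (SE 0.15), and Anln, at 0.23 (SE 0.17). Cholesterol synthesis had 0.10 with 20 of 24 above 0 and 0 called, with the smallest p for Tm7sf2 at 0.15 (SE 0.08) and Stard4 at 0.20 (SE 0.13). All 8 meningeal fibroblast markers also lay above 0 here, with a median of 0.39, and all 12 astrocyte markers, with 0.19.

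The groups of knockdown with morphine and scramble with saline differ in both virus and drug, and this comparison had 28 of 31 members below 0, where 50.4% of all genes were, with a median of -0.26, a fold of 0.835. It shares its knockdown libraries with the first comparison, so the values are not independent of it. None of the 31 was called by edgeR, where 0.0137% of all genes were (lowest adjusted p of a member 0.337), and 11, 35.5%, were lower at an unadjusted p under 0.05, as 4.37% of all genes were. Without knockdown replicate 2 the median was -0.13 with 20 below 0, and without replicates 1 and 2 it was -0.08, again with 20. Members at an unadjusted p under 0.05 then numbered 6 and 1, with 7 without knockdown replicate 1 or saline replicate 5. They numbered 14 without knockdown replicate 3, 13 without saline replicate 3 and 12 without knockdown replicate 5. With the ribosomal RNA covariate they numbered 2, with 23 members below 0 and a median of -0.18. The groups did not overlap for 4 members, Ugt8a, Nkx6-2, Qdpr and Tmem125, which is 12.9% beside 2.16% of all genes that were lower without overlap.

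Ppp1r14a again had the lowest value and the smallest p, with -0.83 (SE 0.23, edgeR adjusted p = 0.337) from means of 2.84 ± 1.04 against 5.05 ± 0.823 CPM (SD, n = 4). Tmem125 was at -0.73 (SE 0.27), Nkx6-2 at -0.70 (SE 0.22) and Gjb1 at -0.62 (SE 0.26). Among enzymes Ugt8a was at -0.51 (SE 0.17, edgeR adjusted p = 0.378), with 15.5 ± 3.58 against 22.1 ± 3.95 CPM, and Qdpr at -0.46 (SE 0.13, adjusted p = 0.341), with 87.1 ± 14.3 against 120.1 ± 9.15. Ermn, Mag, Gpr37, Tspan2 and Sox10 were at -0.48, -0.45, -0.36, -0.34 and -0.26, each at an unadjusted p under 0.05 and none past adjustment. Above 0 lay Gsn at 0.17 (SE 0.14), Cldn11 at 0.08 (SE 0.16) and Enpp6 at 0.02 (SE 0.22), none of them called. Of the other lists, mature oligodendrocyte genes had a median of -0.22 with 17 of 25 below 0 (-0.05 and 16 without knockdown replicates 1 and 2), cholesterol synthesis -0.25 with 21 of 24 (-0.15 and 22), and precursor markers 0.12 with 4 of 12 (0.007 and 6), with 0 called in each. Among the smallest p in these lists were those of Efnb3 (-0.37, SE 0.11), of Mvk (-0.36, SE 0.12) and Sqle (-0.28, SE 0.11), and of Pcdh15 (-0.31, SE 0.09) and Lhfpl3 (-0.35, SE 0.11). Regulators of differentiation had 13 of 24 below 0, a median of -0.009 and 0 called. The smallest p of that list belonged to Olig2, a factor of the whole lineage, at 20.3 against 25.7 CPM (-0.34, SE 0.09, edgeR adjusted p = 0.309). Sox6 followed and lay above 0, at 0.31 (SE 0.10, edgeR adjusted p = 0.378). Beside these, all 8 meningeal fibroblast markers lay above 0, with a median of 0.81, or 0.62 without knockdown replicates 1 and 2. Each was at an unadjusted p under 0.05, where 2052 of all 21958 genes tested were in either direction. Without those replicates 3 of 8 were at that p. All 5 blood markers lay below 0, with a median of -0.60.

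Levels between genes were compared per kilobase of exon, over all 12 libraries. Mbp led with 113 CPM per kb, followed by Qdpr at 60.5, Trf at 47.4, Car2 at 43.0, Cnp at 38.9 and Mobp at 38.1. Mal, Cldn11, Enpp2 and Cryab lay between 29.8 and 24.5, and Mag, Bcas1, Gsn, Tspan2, Ndrg1 and Mog between 17.7 and 10.7. Sox10 and Myrf stood at 8.98 and 4.56 CPM per kb, and the lowest members were Tmem125 at 1.39, Aspa at 1.22 and Enpp6 at 0.633. The members with the lowest fold changes between knockdown and scramble morphine, Ppp1r14a at 3.21, Tmem125 at 1.39 and Opalin at 2.25 CPM per kb, came from the low end of this order. Aspa and Enpp6, lower still in level, had log2 fold changes of -0.27 and -0.06 in that comparison. Of the members, 7 overlap another protein-coding gene (Cnp, Cryab, Ermn, Nkx6-2, Plekhh1, Trf and Tspan2), and their counts may hold reads of it. For Trf that gene, Gm20425, lies on the same strand, and for the others on the opposite strand. The strand setting of the counting is not given in the sources used here. Exon length was the union of all annotated exons, which overstates the length of genes with rare long transcripts.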

How the data were processed

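RNA of 12 libraries of mouse medial prefrontal cortex was sequenced from both ends after poly(A) selection, with a second strand marked by dUTP, per the labels' protocols. The deposited table holds raw counts per gene for each library, and no further normalization of the deposited counts was apparent from the values. The submitters' processing notes name HISAT2 2.0.4, cutadapt 1.9, mm10, edgeR, DESeq2 and StringTie 1.3.4d, with no role or order; the annotation release and strand setting were not given in the sources used here. Symbols, coordinates and exon lengths came from GENCODE annotation of GRCm38, the assembly of mm10, which paired 55141 of the 55401 IDs with a symbol.

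Counts were filtered with edgeR 4.0.16 (R 4.3.3, filterByExpr with a minimum count of 10), which kept 21958 genes, scaled by the trimmed mean of M values (TMM) and fitted with the quasi-likelihood test, with 1 mean per group over all 12 libraries and 9 residual degrees of freedom. The 3 comparisons were adjusted by Benjamini-Hochberg over all genes kept, and a gene was called at an adjusted p under 0.05. CPM values use the same scaling. Total counts ran from 41483220 to 65739423, and the common biological coefficient of variation of the fit was 23.2%. Fold intervals are 95% intervals from the SE of the fit. The procedure was tested on simulated data with known changes.

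Alternatives covered scaling, the filter, DESeq2 1.42.0, limma 3.58.1 with voom, a fit of the compared groups only, a block for the replicate number, the ribosomal RNA share as a covariate, each library left out in turn and, added after seeing the data, knockdown replicates 1 and 2 left out together. Values in every library were to be given for set members of each role and for the members with the smallest p and the extreme fold changes of each comparison, and in every other list for the 2 genes with the smallest p; Qdpr, Tmem125 and, outside the 31, Klk6 and Olig2 were added after their values were seen. Some genes of these other lists are not reported here by name. The members and lists were chosen with earlier results of these data known. Promoter sequences are from RefSeq on GRCm38.p6.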

Additional observations from a re-analysis of the deposited data

Results flagged for a closer look

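In the scramble morphine group, Fa2h, the fatty acid 2-hydroxylase of myelin lipids, had 1 library far from the others: replicate 4 stood at 16.9 CPM, and the distance to its nearest neighbour was above Dixon's 95% critical value for 4 samples, as a share of the group's range. Across 99 group values tested this was the 1 result so marked, where chance marks about 1 in 20. Replicate 4 was among the 3 lowest of the 12 libraries for 12 of the 31 members. All 4 knockdown libraries lay below the lowest scramble morphine library of Fa2h, so that separation does not rest on replicate 4.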

How the results depend on the processing

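Of 1100 recomputed log2 fold changes of 50 named member values, 1068 kept their direction and their side of the threshold and 30 changed sign. The other 2 passed the threshold: Ppp1r14a with DESeq2 and Qdpr without knockdown replicate 5. Member values outside these 50 are not in that count, and some turned too. Against saline, Mog (0.207), Mobp (0.152) and Mal (0.123) turned without knockdown replicates 1 and 2, where 20 of 31 members lay below 0. Between morphine and saline, Opalin turned to -0.285 with the covariate, where 19 of 31 lay below 0 against 9 in the main fit. The median of the members between knockdown and scramble with morphine ranged from -0.428 to -0.175 with 1 library left out. Members called there were 0 in edgeR, 1 of 31 with DESeq2, where 0.747% of all genes were, and 0 to 1 with 1 library left out. Genes called in that comparison were 0, against 2 with no filter, 164 with DESeq2, 1 with limma and 1 without both high ribosomal RNA libraries, and ranged from 0 to 375 with 1 library left out (375 without knockdown replicate 5). Between morphine and saline they were 0, against 4 with DESeq2, 1 with the compared groups alone and 1 without both of those libraries. Between knockdown and saline they were 3, against 0 with library totals, 5 with no filter, 147 with DESeq2, 0 with limma, 5 with the compared groups alone, 0 with the ribosomal RNA covariate and 1 without both libraries, and ranged from 0 to 55 with 1 library left out (7 without scramble morphine replicate 4, 55 without knockdown replicate 5). Why these counts differ was not tested. With the replicate number as a block, genes called were 2, 1 and 0 in the 3 comparisons, 0 members were called, the median of the members between morphine and saline turned to -0.032, and Enpp6 turned to -0.067 against saline. No label ties a number to a shared animal or day, so the numbers were not taken to pair the samples. Pairs of the same number did correlate more often. Over 9 such pairs the correlation of deviations ran from -0.059 to 0.219 (median 0.111, 5 over 0.1). Over 39 pairs of different numbers the median was -0.022 with 2 over 0.1, and 6 of 12 libraries correlated best with their own number. What the numbers stand for is not given in the sources used here. Between knockdown and scramble with morphine the sign turned, with the covariate, for Mog (0.171), Opalin (0.20), Cldn11 (0.012), Enpp2 (0.186), Bcas1 (0.057), Enpp6 (0.185) and Cryab (0.013), and without both libraries for Mog (0.09), Aspa (0.024), Enpp2 (0.03), Bcas1 (0.11), Enpp6 (0.121) and Cryab (0.01). Gsn turned to 0.002 with a filter at 1 CPM. With 1 library left out, Gsn ranged from -0.141 to 0.068, Enpp6 from -0.226 to 0.129, Bcas1 from -0.22 to 0.062 and Cryab from -0.123 to 0.015. Against saline Enpp6 turned to -0.024 with library totals, and with 1 library left out Enpp6 ranged from -0.077 to 0.092 and Cldn11 from -0.041 to 0.156. With 4 libraries a group, members whose knockdown libraries lie far apart have wide errors, and small differences in them could not be detected.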

Other observations

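With the mean of the 31 members in each library subtracted from the log2 CPM of each, the members furthest from 0 between knockdown and scramble with morphine lay on both sides. The difference was -0.60 for Ppp1r14a, -0.42 for Tmem125 and -0.35 for Opalin, and 0.37 for Gsn, 0.33 for Enpp6 and 0.30 for Cryab, which were near 0 before the lower mean was subtracted. Mbp, by contrast, followed the mean of the members closely: its SD over the 12 libraries went from 0.254 to 0.059. These differences are relative to the other members and were not tested.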
